A study of Rattus norvegicus with 24 samples.

Results

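The core loop of the circadian clock was followed through 10 genes, Arntl (also called Bmal1), Clock, Npas2, Per1, Per2, Per3, Cry1, Cry2, Nr1d1 and Nr1d2, which were chosen by gene symbol out of the 21067 genes of the deposited table. All 10 were listed and all 10 passed the filter of a mean of 0.1 FPKM (fragments per kilobase of transcript, scaled to the mapped fragments of the library) over the 24 libraries, the filter that left 14772 genes to test. Messenger RNA of the quadriceps muscle of male and female Sprague-Dawley rats, 6 weeks old when obtained, was sequenced in 4 groups of 6 rats. The control group was fed normally without treadmill training. The treadmill group ran for 7 weeks, at a speed that rose weekly and was then held, and finally to exhaustion before the muscle was taken. The 2 catgut groups ran the same programme after pieces of collagen thread had been embedded at acupoints, in catgut group 1 at Bai Hui and Qiang Feng and at Qian Shen, Yang Wa, Han Gou and Xie Qi of the hind limbs, and in catgut group 2 with Fei Shu added. The thread was placed by needle under ether anaesthesia. Every rat had gone through the same days of treadmill habituation. No group received thread without running, and none is described as given ether and needle without thread. The time of day at which muscle was taken is not given in the sources used here.

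The circadian clock of a cell is a loop of transcription factors that rises and falls over the day. ARNTL pairs with CLOCK or with its paralogue NPAS2 and switches on the Per and Cry genes and the Nr1d genes from E-box sequences, and the PER and CRY proteins then return to the nucleus and hold that pair back. The nuclear receptors NR1D1 and NR1D2 (REV-ERB alpha and beta) form a second arm, in which they repress Arntl, Npas2 and Clock through ROR elements. In skeletal muscle the loop is known to run in the fibres themselves and to drive daily programmes of glucose and lipid use, so Arntl and the Per genes normally peak at opposite times of the day.

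Promoter windows of RefSeq on the GRCr8 build, 250 bases before to 50 bases after a start site, were found for 9 of the 10 genes, 11 windows in all. The deposited coordinates are those of another, unnamed build and were not mixed with them. Those of Arntl, Per2 and Nr1d1 are printed because they stand for the ROR element, the E-box and D-box inputs of the loop. Capitals mark matches to 5 motifs searched on both strands, CACGTG (E-box), CACGTT (a variant E-box), AGGTCA (a short ROR site), TAGGTNA (a longer ROR site that can overlap the short one) and TTATGTAA (D-box). The letters of the longer ROR site were chosen with the Arntl window in view.
Arntl, chr1:176766078-176766377, plus strand: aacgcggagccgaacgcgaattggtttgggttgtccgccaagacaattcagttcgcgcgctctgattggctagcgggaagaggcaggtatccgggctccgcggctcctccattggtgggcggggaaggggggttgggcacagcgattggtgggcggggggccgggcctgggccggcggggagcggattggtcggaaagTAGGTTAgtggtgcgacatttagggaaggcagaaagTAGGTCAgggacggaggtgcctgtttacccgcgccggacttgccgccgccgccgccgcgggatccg
Per2, chr9:99496944-99497243, minus strand: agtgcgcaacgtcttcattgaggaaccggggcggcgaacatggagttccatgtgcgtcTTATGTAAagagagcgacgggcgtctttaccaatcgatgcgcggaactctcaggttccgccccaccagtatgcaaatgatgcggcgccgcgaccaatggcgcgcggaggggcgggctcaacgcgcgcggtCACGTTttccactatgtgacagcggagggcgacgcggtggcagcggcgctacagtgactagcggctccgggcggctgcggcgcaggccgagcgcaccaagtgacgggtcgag
Nr1d1, chr10:84229405-84229704, minus strand: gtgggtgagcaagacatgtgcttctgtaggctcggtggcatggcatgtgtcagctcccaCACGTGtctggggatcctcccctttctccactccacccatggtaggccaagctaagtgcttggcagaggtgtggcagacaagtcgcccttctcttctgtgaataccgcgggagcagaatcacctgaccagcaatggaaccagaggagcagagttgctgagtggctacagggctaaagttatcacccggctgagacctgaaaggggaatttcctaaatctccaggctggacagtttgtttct

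The Arntl window held 2 matches to the longer ROR site, starting 52 and 16 bases before the start site, the nearer of which also contains the short site. The longer site was found in 1 of the 11 windows and in 8.7% of all 33469 windows of the same length. The Per2 window held a variant E-box 62 bases and a D-box 192 bases before its start site. The variant E-box was present in 3 of the 11 windows (Per2, Cry2 and the other start of Nr1d1) and in 4.83% of all windows, and the D-box in 1 and in 0.893%. CACGTG was found in 1 window, that of Nr1d1 printed above, and in 6.42% of all windows, and the short ROR site in 2 (Arntl and Nr1d2) and in 16.2%. A match is a description of the letters and not of a bound site.

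Totals ran from 45945938 to 78278080 counts per library, and the markers of skeletal muscle were high in all of them (Ckm 13319 to 23660 FPKM) although the extraction note of the labels speaks of an adipose type. Transcripts of the Y chromosome were present in 11 libraries (summed level 8.45 to 21.6 FPKM) and near 0 in the other 13 (up to 0.0287 FPKM). They were those numbered 4 to 6 in the control group, the treadmill group and catgut group 1, but 1 and 5 in catgut group 2, while the methods describe equal numbers of males and females. Transcripts of liver genes summed to more than 10 FPKM in 3 libraries, number 2 of the control group and numbers 2 and 3 of the treadmill group (Alb up to 226 FPKM), against at most 0.862 FPKM in the catgut groups. Results below are given with and without these libraries where that changes a call. Below, libraries with liver transcripts means only those above 10 FPKM. Treadmill libraries 4 to 6 were kept in that setting. Their sums, from 1.01 FPKM upward, were still above every catgut library and every control library but number 2. The median of the treadmill group was 5.41 FPKM. The part of these lower liver levels in the clock gene results was not tested. Nothing in the labels says how the rats were assigned to harvest days. Each p-value below was computed from the spread between these libraries. A difference between groups in the day or time of harvest, if there was one, could not be told apart from one of treatment.

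Arntl encodes the partner without which the positive arm does not work. In the treadmill group its level ran from 3.88 to 11.0 FPKM (median 7.41), in catgut group 1 from 0.804 to 3.75 FPKM (median 2.18) and in catgut group 2 from 0.808 to 2.30 FPKM (median 1.41). Every treadmill library was above every library of both catgut groups. The control group lay across the whole span, from 1.11 to 11.4 FPKM with a median of 1.95, since its libraries 1 and 2 stood at 11.4 and 9.26 FPKM among the treadmill libraries while libraries 3 to 6 stood at 2.32, 1.44, 1.11 and 1.58 FPKM among the catgut libraries. Npas2, the paralogue of Clock and a known direct target of the Nr1d proteins, had the same order of medians over the treadmill and catgut groups at a lower level. It ranged from 0.402 to 1.66 FPKM (median 1.20) in the treadmill group, from 0.0540 to 0.589 FPKM (median 0.215) in catgut group 1 and from 0.0590 to 0.317 FPKM (median 0.200) in catgut group 2. The treadmill group did not overlap catgut group 2 and overlapped catgut group 1 in its lowest library. In the control group Npas2 was again high in libraries 1 and 2 (1.09 and 0.962 FPKM) and between 0.110 and 0.417 FPKM in the other 4. The smallest count behind these Npas2 values was 11, in catgut group 1.

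Clock, the third factor of the positive arm, gave no order of the groups. Its medians were 0.322 FPKM in the control group, 0.511 in the treadmill group, 0.463 in catgut group 1 and 0.619 in catgut group 2, and all 4 groups overlapped. Its values spread from 0.114 to 2.41 FPKM over the 24 libraries, and each group held both low and high values. Its nearest downstream neighbour Tmem165, 820 bases away in the deposited coordinates, correlated with it at Pearson's r = 0.13 (Spearman's rho 0.19, 24 libraries), and the highest r of any of 11965 genes was 0.65 (Fgfr2).

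**Figure D1:**
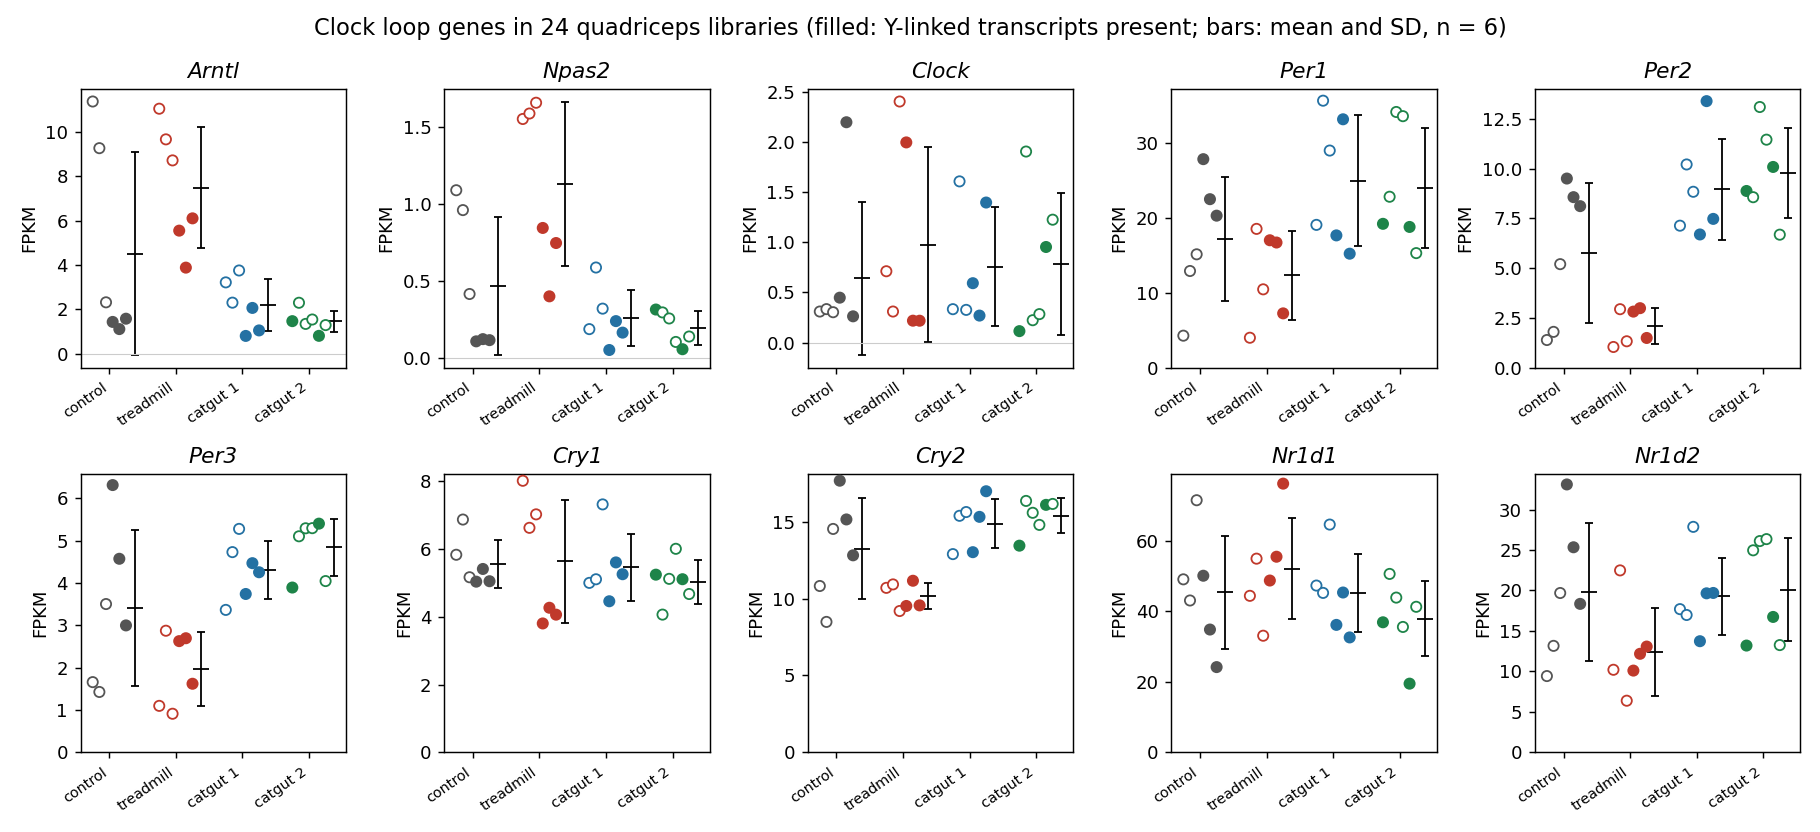
Level of each clock loop gene in FPKM (vertical axis, linear, its own scale per panel) in each of the 24 libraries by group, in order of replicate number; filled points are libraries with Y-linked transcripts, and bars give the mean and SD of 6 libraries. Arntl and Npas2 were high in the treadmill group and in control libraries 1 and 2, Per2 was low in those libraries, and Cry1 and Nr1d1 overlapped among all groups.

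Per2, a period gene of the negative arm, had medians in the opposite order to those of Arntl over the treadmill and catgut groups. It ranged from 1.03 to 2.99 FPKM (median 2.15) in the treadmill rats, from 6.69 to 13.4 FPKM (median 8.16) in catgut group 1 and from 6.68 to 13.1 FPKM (median 9.49) in catgut group 2. No treadmill library reached the lowest catgut library. The control libraries 1 and 2 were at 1.38 and 1.79 FPKM, library 3 at 5.20 FPKM and libraries 4 to 6 between 8.12 and 9.51 FPKM. Per3, its paralogue, ran from 0.911 to 2.87 FPKM (median 2.12) in the treadmill group, from 3.37 to 5.28 FPKM (median 4.36) in catgut group 1 and from 3.89 to 5.40 FPKM (median 5.20) in catgut group 2. Here too the treadmill group overlapped neither catgut group, and the control group spanned both, from 1.43 to 6.32 FPKM. Per1, which hormones and activity also induce, was more scattered, from 3.99 to 18.6 FPKM (median 13.6) in the treadmill group, from 15.2 to 35.7 FPKM (median 24.1) in catgut group 1 and from 15.3 to 34.2 FPKM (median 21.0) in catgut group 2. Its groups overlapped, and control libraries ranged from 4.26 to 27.9 FPKM.

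The cryptochromes are the partners of the PER proteins, and the 2 paralogues differed. Cry2 lay within a narrow band of 9.19 to 11.2 FPKM (median 10.1) in the treadmill group and was higher in every library of catgut group 1 (12.9 to 17.0 FPKM, median 15.3) and of catgut group 2 (13.4 to 16.3 FPKM, median 15.8). Control values ran from 8.48 to 17.7 FPKM. Cry1 had medians of 5.29, 5.45, 5.18 and 5.12 FPKM in the control group, the treadmill group, catgut group 1 and catgut group 2, and its widest range, 3.81 to 8.02 FPKM, was within the treadmill group.

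The repressors of the second arm include the most abundant of the 10 genes per length by group mean FPKM, Nr1d1. It had medians of 46.0 FPKM in the control group, 51.8 in the treadmill group, 45.2 in catgut group 1 and 39.0 in catgut group 2, with ranges that overlapped throughout (19.5 to 76.1 FPKM over all 24 libraries). It overlaps Thra, the thyroid hormone receptor alpha gene (mean 19.5 FPKM), on the opposite strand by 1059 bases, and as no source states that counting used strand, reads from the shared stretch cannot be told apart. Nr1d2 ran from 6.38 to 22.5 FPKM (median 11.2) in the treadmill group, 13.7 to 27.9 FPKM (median 18.7) in catgut group 1 and 13.2 to 26.3 FPKM (median 20.8) in catgut group 2. Its groups overlapped, with 9.42 to 33.1 FPKM in the control group.

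The treadmill group against the control group addresses what training and exhaustion did to the loop. None of the 10 genes passed edgeR's quasi-likelihood test at an adjusted p of 0.05 (Benjamini-Hochberg over 14772 genes), by which 0.0542% of all genes were called, and none passed with DESeq2 or limma. At an unadjusted p under 0.05 there were 3, Per2, Cry2 and Nr1d2, beside 9.12% of all genes. By the criterion of the methods, a ratio of mean FPKM above 1.5 in either direction with an unadjusted p under 0.05, Per2 (log2 fold change -1.41, SE 0.46) and Nr1d2 (-0.65, SE 0.28) were lower in the treadmill group, 2 of 10 genes where 2.85% of all genes met it. Arntl had a log2 fold change of 0.70 (SE 0.58) and Npas2 of 1.23 (SE 0.62), with control SDs on the log2 scale of 1.45 and 1.55. No member separated the 2 groups completely, which 0.447% of all genes did. The count by the criterion was 5 without control library 1 and 1 without control library 3.

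The same comparison was made separately in the libraries with and without Y-linked transcripts, a division made after the values were seen. Among the 3 control and 3 treadmill libraries with them, Arntl ran from 1.11 to 1.58 FPKM in control and from 3.88 to 6.10 FPKM in treadmill (log2 fold change 2.07, SE 0.26, edgeR adjusted p = 0.0468), the log2 fold change was 2.64 for Npas2 (SE 0.38, adjusted p = 0.0646) and -1.69 for Per2 (SE 0.24, adjusted p = 0.0642). The criterion was met by 7 of the 10 genes, beside 1455 of all 14772 genes, and 34 of all genes were called. Among the 3 and 3 without them, Arntl ran from 2.32 to 11.4 FPKM in control and from 8.71 to 11.0 FPKM in treadmill (log2 fold change 0.25, SE 0.53), no gene was called and 1 of the 10 met the criterion. There 449 of all 14772 genes met it, against 421 in the main fit of all 12 libraries. The difference itself, as an interaction term, was called for none of the 10 genes (edgeR, lowest adjusted p = 0.521 over the comparisons fitted). Its smallest unadjusted p was that of Nr1d1 (interaction 1.32, SE 0.36), with Npas2 at 1.77 (SE 0.53) and Arntl at 1.81 (SE 0.65). In each of the 4 groups the mean Arntl level was lower in the libraries with Y-linked transcripts, at 1.38 against 7.65 FPKM in control, 5.18 against 9.80 in treadmill, 1.31 against 3.09 in catgut group 1 and 1.14 against 1.62 in catgut group 2. In control, treadmill and catgut group 1 these were the libraries numbered 4 to 6, so Y-linked state and library number cannot be told apart there. The libraries with more than 10 FPKM of liver transcripts were all among those without Y-linked transcripts.

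Catgut group 1 against the treadmill group asks whether embedding, with its ether and needling as well as the thread, altered the response to running. Per2 was 4.17-fold higher in catgut group 1 (log2 fold change 2.06, SE 0.27, edgeR adjusted p = 0.0188) and Cry2 1.43-fold higher (0.52, SE 0.08, adjusted p = 0.0377). These were the 2 of 10 members called, where 0.0474% of all genes were, and 7 members had an unadjusted p under 0.05, beside 6.93% of all genes. The criterion was met by 6 members, 4 higher (Per1, Per2, Per3 and Nr1d2) and 2 lower (Arntl and Npas2), against 3.12% of all genes, and 4 members, Arntl, Per2, Per3 and Cry2, did not overlap between the groups, against 0.413%. Each of these 4 reached the smallest p that an exact permutation test of 6 against 6 libraries allows, 0.00216 two-sided (0.0144 adjusted over 60 member and comparison pairs). Groups without overlap always reach this p, so it adds nothing to the count of members without overlap. Arntl (log2 fold change -1.80, SE 0.34, edgeR adjusted p = 0.123), Npas2 (-2.15, SE 0.46, adjusted p = 0.150) and Per3 (1.09, SE 0.25, adjusted p = 0.182) were not called over all genes. DESeq2 called 5 members, Per2, Cry2 and these 3, beside 140 of all 14772 genes, where edgeR called 7. With the Y-linked level as a covariate in edgeR, Arntl was called (-1.83, adjusted p = 0.00668). Per1 had a log2 fold change of 0.98 (SE 0.33) and Nr1d2 of 0.62 (SE 0.21), while those of Cry1 (-0.07, SE 0.16), Nr1d1 (-0.26, SE 0.20) and Clock (-0.42, SE 0.69) were within 1.5 times their SE.

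The call of Cry2 was lost without any one library but treadmill library 5, and that of Per2 without treadmill library 3 (edgeR adjusted p = 0.0552) or 6 (0.0711). Without the libraries with liver transcripts neither was called, with Per2 at a log2 fold change of 2.00 (edgeR adjusted p = 0.0926) and Cry2 at 0.45 (0.262). Per2 had 1.81 in the libraries with Y-linked transcripts and 2.38 in those without them, and no member was called in either.

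Catgut group 2 against the treadmill group asked the same with Fei Shu added, and it used the same 6 treadmill libraries. On the log2 scale Arntl differed by -2.37 (SE 0.26, edgeR adjusted p = 0.00494), Npas2 by -2.51 (SE 0.44, adjusted p = 0.0427), Per2 by 2.19 (SE 0.27, adjusted p = 0.00691) and Cry2 by 0.57 (SE 0.08, adjusted p = 0.0152). In all, 4 of 10 members were called, 2 higher and 2 lower, where 0.237% of all genes were, and 8 had an unadjusted p under 0.05, beside 10.7%. The criterion was met by 7 members, 5 higher (Per1, Per2, Per3, Cry2 and Nr1d2) and the same 2 lower, against 3.76% of all genes, and 5 members (Arntl, Npas2, Per2, Per3 and Cry2) did not overlap between the groups, against 1.04%. Per3 at 1.26 (SE 0.25, edgeR adjusted p = 0.0651), Per1 at 0.92 (SE 0.32) and Nr1d2 at 0.67 (SE 0.23) were not called. Per3 was called with the Y-linked covariate (edgeR adjusted p = 0.0342), in 1 edgeR fit over all 4 groups (adjusted p = 0.0447) and in DESeq2 (adjusted p = 0.000153). Nr1d1 was at -0.51 (SE 0.23, edgeR adjusted p = 0.452), Cry1 at -0.17 (SE 0.18) and Clock at -0.40 (SE 0.77). The median log2 fold change of the 10 members was 0.22 in catgut group 1 and 0.20 in catgut group 2 against treadmill, beside -0.01 and 0.0035 over all genes tested, since members moved in both directions.

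Arntl and Per2 were called without each library in turn, Cry2 without each except treadmill library 1 (edgeR adjusted p = 0.0522), and Npas2 was lost without any of 10 of the 12 libraries (up to 0.110). Without the 3 libraries with liver transcripts Arntl and Per2 were still called, and Cry2 (0.0602) and Npas2 (0.103) were not, in edgeR. Among the libraries without Y-linked transcripts Arntl alone was called (log2 fold change -2.61, SE 0.21, edgeR adjusted p = 0.0309). Among those with them, 2 of catgut group 2 and 3 of treadmill, none was, with Arntl at -2.18 (SE 0.39).

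**Figure D2:**
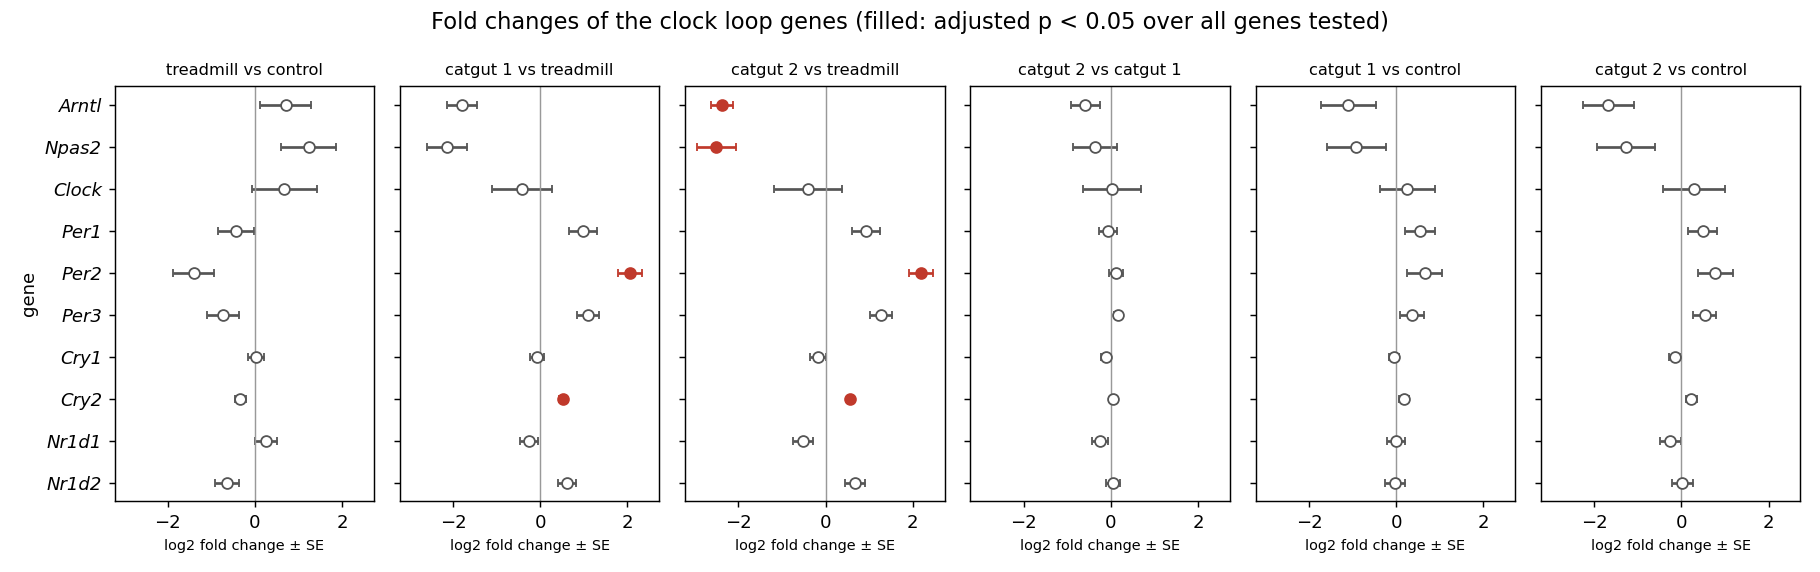
Log2 fold change of each clock loop gene (horizontal axis, edgeR, bars are the SE) in the 6 comparisons of the 4 groups, with filled points for an adjusted p below 0.05 over all genes tested. Filled points appear only in the comparisons with the treadmill group, Per2 and Cry2 for catgut group 1 and Arntl, Npas2, Per2 and Cry2 for catgut group 2.

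Catgut group 2 against catgut group 1 addresses what Fei Shu added, and catgut against control sets the treated rats beside untrained ones. Between the catgut groups no member was called by edgeR, DESeq2 or limma, met the criterion or had an unadjusted p under 0.05, where 0.00677% of all genes were called, 1.25% met the criterion and 3.26% had such a p. Arntl had a log2 fold change of -0.58 (SE 0.33) and Per2 of 0.13 (SE 0.16). Catgut group 1 against control gave 0 calls by edgeR, DESeq2 and limma, 0 members at an unadjusted p under 0.05 and 0 by the criterion, beside 0.0203%, 9.84% and 4.62% of all genes, with Arntl at -1.09 (SE 0.63) and Per2 at 0.65 (SE 0.40). Catgut group 2 against control gave 0 calls by the same 3 tools and 1 member by the criterion (Arntl, -1.67, SE 0.59, edgeR adjusted p = 0.189), beside 0.508% and 5.95% of all genes, with this 1 member at an unadjusted p under 0.05, beside 16.4%. Per2 was at 0.78 (SE 0.40) there. These 2 comparisons and that of treadmill against control share the 6 control libraries.

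Arntl and Per2 were also set against each other within a library, where the separation of treadmill from catgut follows from the levels already given and the control libraries are what the ratio adds. The log2 ratio of Arntl to Per2 FPKM was 0.38 to 3.42 in the treadmill group, above 0 in 6 of 6 libraries. Catgut group 1 had -3.06 to -1.15 and catgut group 2 had -3.64 to -1.90, above 0 in none. In the control group it ran from -2.95 to 3.04 (median -1.76) and was above 0 in 2 of 6, libraries 1 and 2.

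**Figure D3:**
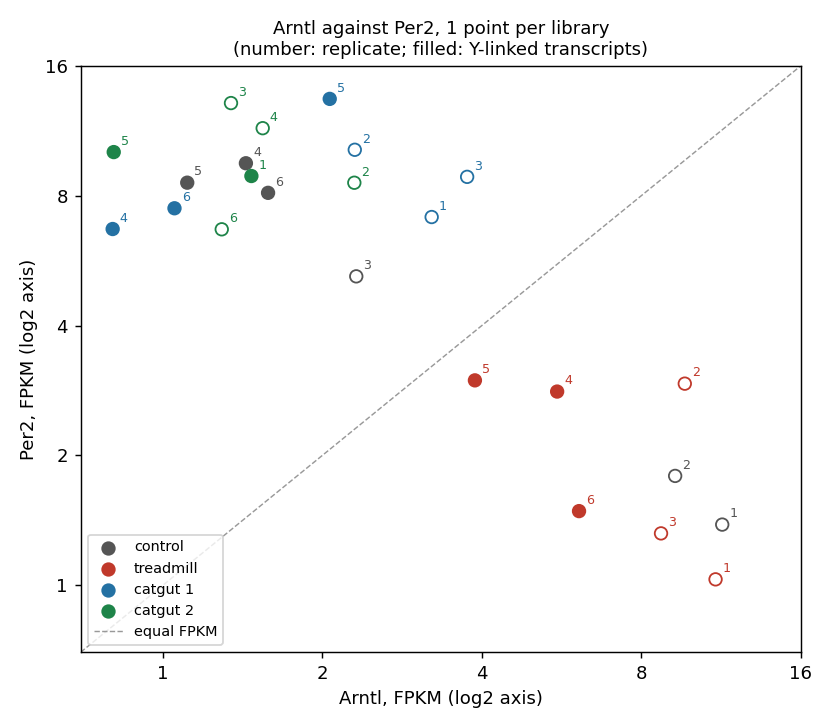
Arntl (horizontal) against Per2 (vertical) in FPKM, both on log2 axes, 1 point per library with its replicate number; filled points have Y-linked transcripts and the dashed line marks equal levels. The 6 treadmill libraries and control libraries 1 and 2 lie below the line, and the other 16 libraries lie above it.

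Across the 24 libraries, after the mean of each group was removed and with 9 relations tested by permutation within groups, Arntl on the log2(FPKM + 1) scale rose and fell with Npas2 (Pearson's r = 0.86, Spearman's rho 0.85, adjusted p = 0.00018 for both). It ran opposite to Per2 (r = -0.72, permutation p = 0.0114, adjusted 0.0341; rho -0.57, adjusted 0.0538) and to Per3 (r = -0.64, adjusted 0.0425; rho -0.51, adjusted 0.0767). Without the libraries farthest from the median, control 1 and treadmill 1, r was 0.82 for Npas2, -0.59 for Per2 and -0.53 for Per3. Within the control group alone r with Per2 was -0.99 and with Npas2 0.98, while within the treadmill group r with Per2 was -0.57 and within the catgut groups 0.30 and -0.14, so the opposite course of Arntl and Per2 rests mainly on the control libraries, which lie in 2 clusters. With the means of the libraries with and without Y-linked transcripts also removed, r was 0.69 for Npas2 and -0.49 for Per2.

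Cry1 followed Arntl (r = 0.54, adjusted p = 0.00598 by permutation; rho 0.61), in the control group (0.81), the treadmill group (0.89) and catgut group 1 (0.67) but not in catgut group 2 (-0.45), and with the Y-linked means removed r was 0.34. Cry2 had r = -0.60 (adjusted p = 0.0837 by permutation), which was -0.85 within control and between -0.03 and -0.02 within each other group. Per1 (-0.46), Nr1d2 (-0.32), Nr1d1 (0.29) and Clock (-0.18) had adjusted permutation p from 0.0970 to 0.459. Nr1d1 correlated with Arntl at 0.91 within catgut group 1 and 0.84 within catgut group 2 but at -0.42 within the treadmill group.

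**Figure D4:**
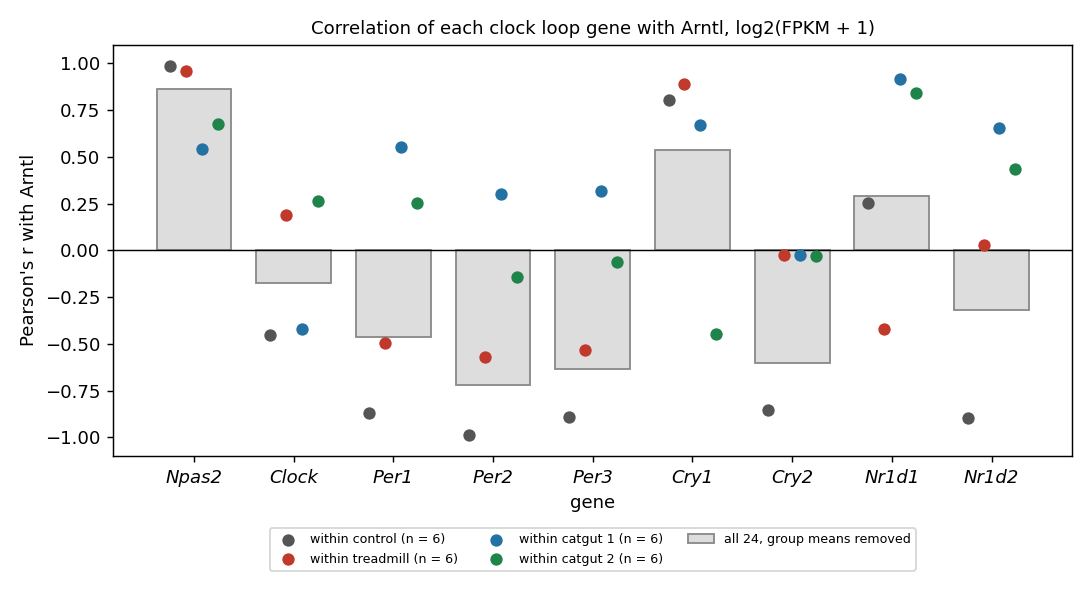
Pearson's r of each clock loop gene with Arntl on the log2(FPKM + 1) scale (vertical axis); bars use all 24 libraries after the group means were removed and points use the 6 libraries of 1 group. Npas2 is positive in all 4 groups (0.54 to 0.98), and Per2 ranges from -0.99 in the control group to 0.30 in catgut group 1.

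Genes were then ranked by how closely they followed Arntl and Per2 over the 24 libraries, among 9370 genes with a mean of at least 1 FPKM, as a description without a test. Group means were not removed for this ranking, so differences between groups enter each r. The 5 closest to Arntl were Ucp3 (r = 0.94), a mitochondrial uncoupling protein of muscle, Tmem140 (0.93), Asb2 (0.90), a ubiquitin ligase subunit of muscle, Dyrk2 (0.90), a protein kinase, and Col5a3 (0.90), a collagen chain. With group means removed their r was 0.91, 0.90, 0.83, 0.82 and 0.81 in this order. Npas2, with a mean below 1 FPKM, was not among the genes ranked, and its r with group means removed was 0.86. The mean of Ucp3 (± SD, n = 6) was 137 ± 56.7 FPKM with the treadmill alone and 36.1 ± 5.10 FPKM in catgut group 2 (log2 fold change -1.96, SE 0.23, edgeR adjusted p = 0.00589), and 109 ± 113 FPKM in control. In catgut group 1 it was 47.6 ± 29.4 FPKM (-1.56, SE 0.40, edgeR adjusted p = 0.269, not called). The 5 closest to Per2 were Usp2 (0.94), a deubiquitinase, Per3 (0.94), Dbp (0.93), the D-box activator, Ciart (0.93), a clock repressor, and Wee1 (0.89), a cell cycle kinase (0.86, 0.86, 0.85, 0.90 and 0.77 in this order with group means removed, when Ciart came first of the 5), of which 4 belong to the lists of clock modifiers and outputs described next and 1 is a member. Dbp averaged 23.3 ± 15.0 FPKM in the treadmill group, 99.0 ± 19.3 FPKM in catgut group 1 and 106 ± 18.7 FPKM in catgut group 2, with edgeR adjusted p of 0.149 and 0.0651 against treadmill.

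The other genes of the pathway were read from 2 lists. Of 17 clock modifiers tested out of 20, 1 was called higher in catgut group 1 than in treadmill, Usp2 (log2 fold change 1.05, SE 0.15, edgeR adjusted p = 0.0377), beside 0.0474% of all genes, and 0 in catgut group 2, where 2 met the criterion, beside 3.76% of all genes. Usp2 had a log2 fold change of 1.03 in catgut group 2 (SE 0.20, edgeR adjusted p = 0.0584). Of 9 clock outputs tested out of 10, 1 was called higher in catgut group 2 than in treadmill, Wee1 (1.03, SE 0.13, edgeR adjusted p = 0.00825), beside 0.237% of all genes. Wee1 had a log2 fold change of 0.81 in catgut group 1 (SE 0.19, edgeR adjusted p = 0.208). The criterion was met by 5 outputs in catgut group 1, all higher, by 4 in catgut group 2, 3 higher and 1 lower, and by 3 in treadmill against control, all lower, beside 3.12%, 3.76% and 2.85% of all genes. The median log2 fold change of the outputs was 0.60 and 0.36 in the 2 catgut groups against treadmill and -0.41 in treadmill against control, beside -0.01, 0.0035 and -0.0020 over all genes. No modifier or output was called in treadmill against control, between the catgut groups or in either catgut group against control by edgeR.

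Glucocorticoids and contraction both act on Per1, so their known target genes were read beside it. Of 16 glucocorticoid targets, Tsc22d3 (GILZ) was called higher in catgut group 1 than in treadmill (0.91, SE 0.11, edgeR adjusted p = 0.00901) and the criterion was met by 3, all higher, beside 0.0474% and 3.12% of all genes. In catgut group 2 none was called and 3 met the criterion, 2 higher and 1 lower, beside 0.237% and 3.76%. Tsc22d3 had a log2 fold change of 1.04 there (SE 0.22, edgeR adjusted p = 0.0901). In treadmill against control none of the list was called, and 3 higher and 1 lower met the criterion, beside 0.0542% and 2.85%. Tsc22d3 was at -0.52 in that comparison (SE 0.21, edgeR adjusted p = 0.515). Median log2 fold changes of the list were 0.37 and 0.19 in catgut groups 1 and 2 against treadmill and 0.21 in treadmill against control. Over all genes they were -0.01, 0.0035 and -0.0020. The summed level of this list ran from 415 to 824 FPKM in the treadmill group, 465 to 896 FPKM in catgut group 1, 458 to 835 FPKM in catgut group 2 and 411 to 563 FPKM in control. All 13 immediate-early genes met the criterion in treadmill against control, each higher, and 3 were called, Arc (3.36, SE 0.42, edgeR adjusted p = 0.0126), Egr3 (3.38, SE 0.44, adjusted p = 0.0164) and Ier2 (1.57, SE 0.24, adjusted p = 0.0439), beside 2.85% of all genes by the criterion and 0.0542% called. Catgut group 2 against control called 5 and catgut group 1 against control 1, beside 0.508% and 0.0203% of all genes. Against treadmill neither catgut group had a call among them, and their summed level was 391 to 1042 FPKM in the treadmill group, 366 to 926 FPKM in catgut group 1 and 482 to 853 FPKM in catgut group 2.

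Markers of other tissue components were compared because they could differ between pieces of muscle, and in bulk tissue fewer cells of a type cannot be told apart from less RNA per cell. Satellite cell markers, all 3 present, summed to 9.01 to 10.2 FPKM in the treadmill group, 4.41 to 9.92 FPKM in catgut group 1, 5.12 to 9.37 FPKM in catgut group 2 and 4.17 to 7.61 FPKM in control. Adipocyte markers, 7 of 7 listed, summed to 335 to 680 FPKM in the treadmill group, 328 to 724 FPKM over the catgut groups and 360 to 704 FPKM in control, and macrophage and neutrophil markers, 7 of 7, to 19.9 to 108, 18.7 to 50.1 and 22.8 to 67.4 FPKM. The adipocyte sums had medians of 432, 447, 491 and 615 FPKM in control, treadmill, catgut group 1 and catgut group 2. Adipoq alone had medians of 4.10, 3.41, 1.04 and 0.730 FPKM in that order, with ranges that overlapped. Endothelial markers, 4 of 5 listed, summed to 34.2 to 62.2 FPKM in treadmill, 29.3 to 59.7 FPKM over the catgut groups and 31.8 to 63.3 FPKM in control, and smooth muscle markers, 3 of 3, to 59.2 to 152, 61.8 to 246 and 38.4 to 90.6 FPKM. Blood markers, 4 of 5 listed, summed to 446 to 1737 FPKM in treadmill, 327 to 1864 FPKM over the catgut groups and 309 to 577 FPKM in control. Fibre type markers, 4 of 6 listed, summed to medians of 3560 FPKM in control, 2996 in treadmill, 3317 in catgut group 1 and 2887 in catgut group 2. Of that list Myh7, the slow fibre myosin, ran from 0.0984 to 417 FPKM over all libraries, with medians of 11.99 FPKM in control, 67.8 in treadmill, 131 in catgut group 1 and 110 in catgut group 2. The part of these markers in the clock gene results was not tested.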

How the data were processed

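Poly(A) RNA of quadriceps muscle was sequenced as paired ends, 6 libraries in each of 4 groups. The submitters' processing notes name HISAT2 2.0 and StringTie 1.3.0, and the genome build is not given in the sources used here. The authors deposited 1 table with raw read counts and FPKM per gene and library. Depth was 45945938 to 78278080 counts, and intervals were not formed from it because replicates carry the error.

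Each comparison's 12 libraries were fitted alone on the deposited counts by edgeR 4.0.16 (TMM, quasi-likelihood) over the 14772 genes with a mean of at least 0.1 FPKM, and an adjusted p (Benjamini-Hochberg over all genes) below 0.05 was a call. The criterion of the study's methods was a ratio of mean FPKM beyond 1.5 in either direction with p below 0.05. Exact two-sided permutation tests used log2(FPKM + 1), and correlations 100000 permutations within groups. Alternatives were DESeq2 1.42.0, limma 3.58.1, other filters, scalings and pseudocounts, counts divided by 4, a Y-linked covariate, a replicate block, 1 fit over all groups and leaving out libraries. The members and lists were chosen with earlier results of these data known. Named genes were the 10 members, the 5 genes most correlated with Arntl and with Per2, and up to 4 called genes a list.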

Additional observations from a re-analysis of the deposited data

Results flagged for a closer look

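Clock in control library 5 stood at 2.20 FPKM, with the nearest of the other control libraries at 0.448 FPKM, so that the gap was 0.904 of the range of the 6 libraries and above Dixon's 95% critical value for 6 samples. It was the only one of 40 member and group combinations so marked, where chance marks about 1 in 20. Leaving that library out moved the log2 fold change of Clock in treadmill against control from 0.67 to 1.62, and neither value was called by edgeR. Values up to 2.41 FPKM also occurred in the treadmill group.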

How the results depend on the processing

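No call of the main fits changed direction in any setting run, and the direction of Arntl, Npas2, Per2, Per3 and Cry2 in both catgut groups against treadmill was the same in each. Members did reverse in comparisons without a call. Npas2 in catgut group 1 against control had a log2 fold change of -0.91, and 0.41 in the libraries with Y-linked transcripts. For catgut group 1 against treadmill 1 member was called, in place of 2, with no filter on low values, in limma with either pseudocount, with the replicate block and in 1 fit over all 4 groups, 5 with DESeq2, and 0 without the libraries with liver transcripts and in the libraries with or without Y-linked transcripts. For catgut group 2 against treadmill, in place of 4, the replicate block and the omission of the liver libraries left 2 (Arntl and Npas2 with the block, Arntl and Per2 without the liver libraries), and the libraries with and without Y-linked transcripts 0 and 1. Npas2 was not called in 1 fit over all groups or in limma with a pseudocount of 1 and was not tested at a mean of 1 FPKM, and Per3 was called in 1 fit, with the Y-linked covariate and in DESeq2. With the covariate Arntl was also called in catgut group 1. For treadmill against control 1 was called among the libraries with Y-linked transcripts. Leaving out 1 library at a time gave 0 to 2 calls for catgut group 1 and 2 to 4 for catgut group 2 against treadmill (0 without treadmill library 3, 2 without treadmill library 1).

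By the 1.5-fold criterion, treadmill against control gave 4 members, in place of 2, in 1 fit over all groups, in DESeq2, with the Y-linked covariate and with the replicate block, 7 in the libraries with Y-linked transcripts and 1 in those without, and 1 to 5 with 1 library left out. Over all genes, 1455 met it with Y-linked transcripts and 449 without them, against 421 in the main fit. Catgut group 2 against treadmill gave 4, in place of 7, in the libraries with Y-linked transcripts. Catgut group 2 against control, with 1 in the main test, gave 3 in 1 fit and with the block, 2 in DESeq2 and with the covariate, 5 without Y-linked transcripts and 0 to 3 with 1 library left out. Catgut group 1 against control, with 0, gave 1 in 1 fit and with the covariate, 5 without Y-linked transcripts and 0 to 1 with 1 library left out. The catgut groups against each other, with 0, gave 1 with the covariate and without Y-linked transcripts and 0 to 1 with 1 library left out. The cause was not tested.

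Apart from that of Npas2, reversals among the fold changes given above fell on Cry1, Clock and Nr1d1, none of them called. The log2 fold change of Cry1 in treadmill against control, 0.027, was -0.037 with the covariate, -0.034 and -0.023 in limma, -0.00379 with the replicate block, -0.00122 without the liver libraries, -0.19 with Y-linked transcripts and -0.089 to 0.11 with 1 library left out. Against treadmill Cry1 was 0.24 with Y-linked transcripts, 0.042 without the liver libraries and -0.15 to 0.048 with 1 library left out in catgut group 1, and 0.35 with Y-linked transcripts in catgut group 2. Clock was -0.12 in treadmill against control with Y-linked transcripts, and with 1 library left out it ran from -0.76 to 0.088 for catgut group 1 against treadmill, and from -0.82 to 0.11 for catgut group 2. Nr1d1 was -0.41 in treadmill against control and 0.29 in catgut group 1 against treadmill without Y-linked transcripts. Libraries of equal number correlated between groups at -0.34 to 0.20 and in 0 to 2 of 6 pairs best with their own number, so no pairing was shown, although numbers 4 to 6 carry Y-linked transcripts in 3 of the 4 groups, and the block is given here as a setting. The settings by Y-linked and liver transcripts were chosen after seeing the data. Over all genes, DESeq2 called 113, 140 and 306 in treadmill against control and in catgut groups 1 and 2 against treadmill, where edgeR called 8, 7 and 35, and edgeR with the replicate block called 7, 2 and 3. Npas2 had the fewest counts, as few as 11 in a library, and its call against treadmill in catgut group 2 was kept with counts divided by 4.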
